A study of Mus musculus with 5 samples.

Results

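Isolated islands of H3K36me3 in untreated mouse embryonic stem cells (ESCs) are described here. An island is a broad region enriched in chromatin immunoprecipitation with sequencing (ChIP-seq), and an island was taken as isolated where the H3K36me3 list of L-proline-treated cells had no island with fewer than 10 kb of sequence between them. Of the 11971 autosomal H3K36me3 islands of ESCs, 762 met this rule (6.37%, exact 95% interval 5.93 to 6.82), out of 73415 islands in all 4 deposited lists. The cells were TBV2 ESCs, an established line of the 129/SvP strain. All groups were kept for 5 days at low density on gelatin without feeders, in medium with leukemia inhibitory factor and without non-essential amino acids. Control ESCs received no L-proline, and L-proline-induced cells (PiCs) received 500 µM. H3K36me3 and H3K9me3 were each profiled once in each condition. With 1 library per group there was no replicate, no difference between conditions could be tested, and the intervals below cover counting error over islands only.

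H3K36me3, trimethylation of lysine 36 of histone H3, is laid down mainly by SETD2, an enzyme that travels with elongating RNA polymerase II. The mark is therefore known for covering the bodies of transcribed genes, where it is bound by readers such as the de novo DNA methyltransferases. H3K9me3, trimethylation of lysine 9, is placed by enzymes such as SETDB1 and the SUV39H pair, and is known in ESCs for silenced repeats and heterochromatin. Both marks can lie in the same gene, as in some zinc finger genes.

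The H3K36me3 lists held 12280 islands in ESCs and 16804 in PiCs, with 26055650 and 15787192 tags. Tags outside the islands are not listed, which leaves the sequencing depth unknown, and tag counts of different libraries share no scale. The lowest density was 26.8 tags per kb for ESC islands and 19.9 for PiC islands. Positions are on mouse build mm9 and 1-based. Gene models and sequence of mm9 were not used here, so islands are named by position, no sequence is shown, and the identity of the cells was not checked against marker genes.

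The isolated islands were small and sparse in tags. Their median width was 7.8 kb (interval 7.4 to 8.2), and the other 11209 ESC islands had a median of 13.6 kb (13.2 to 13.8). The narrowest measured 0.8 kb and the widest 65.4 kb, and 237 of them (31.1%) reached 10 kb, against 64.3% of the other islands. Tags per kb had a median of 44.7 (43.9 to 45.4) in the isolated islands and 75.4 (74.3 to 76.8) in the others. In sum the isolated islands covered 6.90 Mb, which is 3.03% of the sequence under autosomal ESC islands, and held 322338 tags, or 1.26% of the tags. All these values come from the library that the rule used, so they describe the members and support nothing further.

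**Figure D1:**
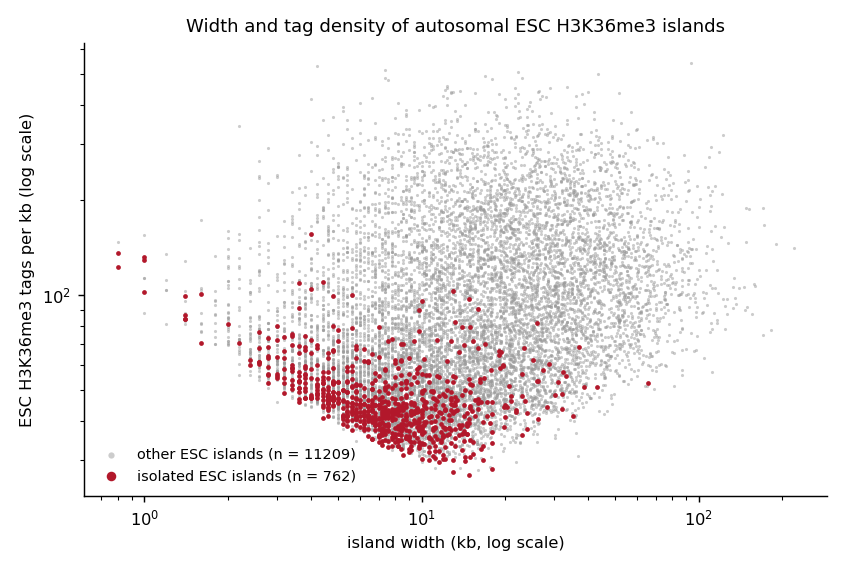
Each point is an autosomal ESC H3K36me3 island, with its width in kb on a log axis and its tags per kb on a log axis. The 762 isolated islands (red) lie along the lower edge of the cloud, and 44 of them reach the autosomal median of 71.7 tags per kb.

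The share of isolated islands fell with rising tag density. In the decile of ESC islands with the fewest tags per kb (26.8 to 41.4), 257 of 1198 were isolated, or 21.5% (interval 19.2 to 23.9). In the fifth decile the share was 4.68% (3.55 to 6.03), and in the eighth 0.501% (0.184 to 1.09). The densest decile, from 190.2 tags per kb upward, held 0 isolated islands of 1197, which allows a share of up to 0.251% by 3 counts of the total, while the exact interval that is plotted ends at 0.308%. By width the share went from 13.2% in the narrowest decile to 0.167% in the widest, where 2 islands were isolated. The change was steeper by tag density than by width, since the 4 narrowest deciles all stayed above 10% while density had brought the share to 6.68% by the fourth.

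**Figure D2:**
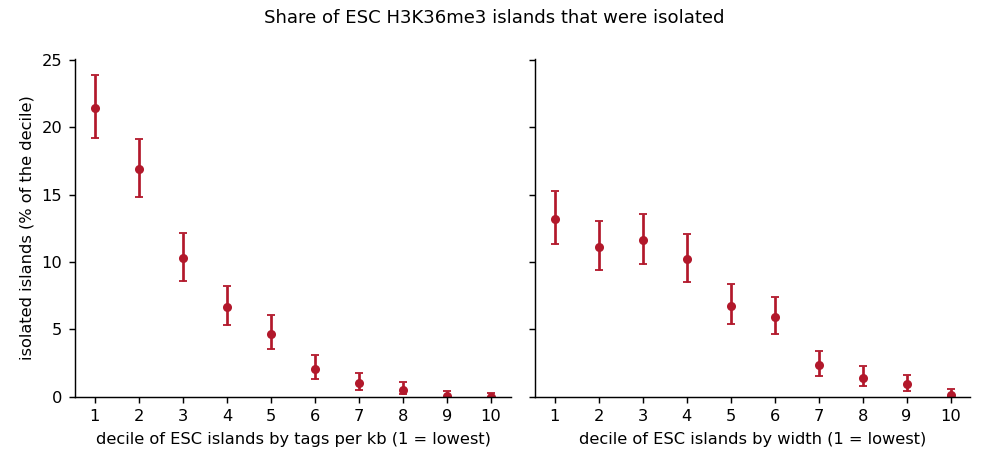
Share of autosomal ESC H3K36me3 islands that were isolated (percent of the decile), with islands ranked by tags per kb (left) and by width (right). Points are shares and bars exact 95% binomial intervals, and both panels descend from left to right, from 21.5% and 13.2% in the first decile.

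The members' densities were also set beside those of the PiC list. Within 4 classes of width (under 5 kb, 5 to 10 kb, 10 to 20 kb and 20 kb or more), no ESC island, isolated or not, had fewer unscaled tags per kb than the sparsest PiC island of its class. The libraries share no scale, so this does not show that the members were dense enough to be listed in PiCs. Among 2372 pairs of ESC and PiC islands that matched 1 to 1 with a reciprocal overlap of 50%, and whose ESC density lay between the 5th and 95th percentile of the members, the median ratio of PiC to ESC tags per kb was 0.820. Multiplied by that ratio, 3 members fell below the sparsest PiC island of their class and 85 (11.2%) below its 5th percentile, against 3.94% of the other islands. Over all 6702 such pairs the ratio was 0.671, and with it 308 members (40.4%) fell below the 5th percentile, against 14.8% of the others. These pairs had to be called in both lists, which selects for higher PiC values, and the part of tag yield in the isolation of the members was not tested.

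Distances to the nearest PiC island ran from 10 kb to 2711 kb, with a median of 40.8 kb (interval 35.4 to 44.8). Of the members, 199 lay under 20 kb from a PiC island, 240 at 20 to 50 kb, 136 at 50 to 100 kb, 178 at 100 to 1000 kb and 9 farther away. Width and density changed little with distance. The median width was 8 kb under 20 kb and 7.9 kb at 100 to 1000 kb, and the median densities were 42.7 and 45.0 tags per kb. The nearest PiC island was in 100 cases (13.1%) itself isolated from every ESC island, close to the 12.9% of all autosomal PiC islands.

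The limit of 10 kb did not fall at a step in the values. Just inside it lay an 11 kb island on chromosome 1 at 33580601 to 33591600, with 34.2 tags per kb and exactly 10 kb to the nearest PiC island. It was followed by islands on chromosome 12 at 100066001 to 100070400 (45 tags per kb) and chromosome 14 at 104889601 to 104901600 (35.4 tags per kb), both 10.2 kb away. Just outside, at 9.8 kb, lay islands on chromosome 12 at 82170401 to 82193600, chromosome 16 at 38461401 to 38475800 and chromosome 6 at 32795201 to 32807400, with 37.6, 39.0 and 36.2 tags per kb. The 438 ESC islands that had no PiC overlap but a PiC island nearer than 10 kb had a median of 7.6 kb and 44.2 tags per kb, close to the members.

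The widest isolated island spanned 65.4 kb on chromosome 2 at 135750401 to 135815800. It held 3443 tags in ESCs, also the most of any member, or 52.6 per kb, and the nearest PiC island was 269.4 kb away. After it lay 2 more isolated islands, at 135825801 to 135830400 and 135832201 to 135840200, so that 78 kb of an 89.8 kb stretch was under ESC islands. Neither H3K9me3 list touched this stretch. In a window of 150 kb to each side of the centre, ESC H3K36me3 covered 26% and PiC H3K36me3 none.

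Another bare stretch lay on chromosome 2, where 2 members separated by 1.2 kb, at 62168801 to 62207400 and 62208601 to 62239600, filled 69.6 kb of 70.8 kb. They held 1977 and 1643 tags, or 51.2 and 53 per kb. The nearest PiC H3K36me3 island was 286 kb from the second, a 5.4 kb island with 27.0 tags per kb. The H3K9me3 islands nearest to the first lay 153.2 kb away in ESCs and 145.6 kb in PiCs.

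Other wide members stood among H3K36me3 islands of both lists. A 42.8 kb island on chromosome 5 at 65833801 to 65876600 (2191 tags, 51.2 per kb) had PiC islands on both sides, the nearer 30.2 kb away. Within 150 kb of its centre H3K36me3 covered 52.7% in ESCs and 36.9% in PiCs. A 32.4 kb island on chromosome 19 at 46783401 to 46815800 (1853 tags) had 59.7% and 32.5%, and a 32 kb island on chromosome 1 at 164504601 to 164536600 (1396 tags) had 40.4% and 29.7%. For the last of these the nearest PiC island, 27 kb away, was dense, with 147.4 tags per kb.

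On chromosome 16 a run of 4 members from 9150601 to 9248600 had 87.2 kb of its 98 kb under ESC islands, the longest such stretch when members were joined over gaps of up to 10 kb. Its islands held 1404, 1844, 1087 and 617 tags, or 53.6, 55.5, 82.3 and 42.3 per kb in order of position. PiC H3K36me3 lay 12 kb before it and 10.2 kb after it. The last of the 4 was also marked by H3K9me3, with coverage of 19.2% in ESCs and 24.7% in PiCs. In all, joining gave 623 stretches, of which 83 spanned at least 20 kb and 8 at least 50 kb.

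The wide islands that carried H3K9me3 carried it in small parts. H3K9me3 islands had a median width of 2.6 kb in ESCs and 3.2 kb in PiCs, so a typical one fills only a small percent of a wide island. On chromosome 17 a 37 kb island at 68071601 to 68108600 (2540 tags, 68.6 per kb) was covered by H3K9me3 over 5.95% in ESCs and 5.41% in PiCs. For a 35.2 kb island on chromosome 10 at 61304001 to 61339200 (1457 tags) the values were 13.6% and 7.95%. An island of 32 kb on chromosome 15 at 88814801 to 88846800 (1551 tags) had 0.625% in ESCs and none in PiCs. Its surroundings showed a wider difference, with H3K9me3 over 14.9% of the 150 kb to each side in ESCs and 4.20% in PiCs.

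**Figure D3:**
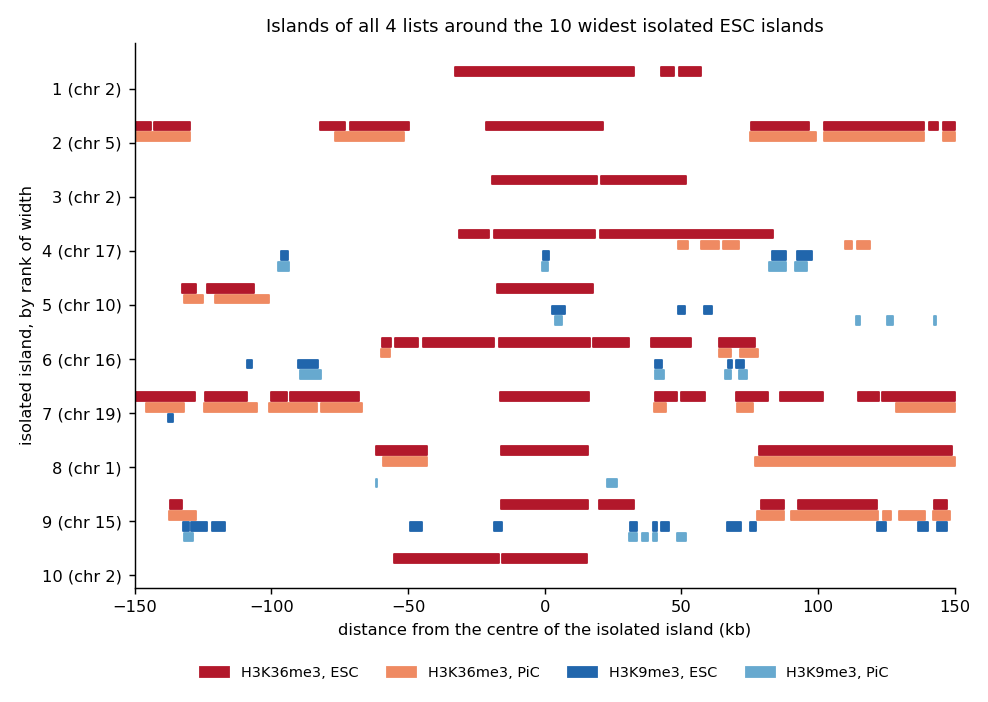
Islands of the 4 lists within 150 kb of the centre of each of the 10 widest isolated ESC islands, one row per island in order of width, with distance from the centre in kb on the horizontal axis. Colours stand for H3K36me3 in ESCs (dark red) and PiCs (orange) and H3K9me3 in ESCs (dark blue) and PiCs (light blue). In 3 rows, all on chromosome 2, no PiC H3K36me3 island is drawn, and ranks 3 and 10 show the same pair of neighbours.

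Apart from these wide islands, the members richest in tags included one on chromosome 1 at 133765001 to 133791000 (26 kb, 2115 tags), chromosome 5 at 104123801 to 104152600 (28.8 kb, 1738 tags) and chromosome 4 at 98421201 to 98444600 (23.4 kb, 1588 tags). They lay 16.8, 15.8 and 10.6 kb from a PiC island, nearer than the median member.

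The densest members were mostly narrow, with 9 of the 10 under 5 kb wide. The first was a 4 kb island on chromosome 4 at 145146601 to 145150600 with 625 tags, or 156.2 per kb. It was followed by islands of 0.8 to 1 kb on chromosome 10 at 41278801 (109 tags), chromosome 1 at 132345001 (132 tags) and 55627401 (129 tags), and chromosome 14 at 9334001 (98 tags). In islands this narrow, few tags are behind a high density. Ranks 6 to 8 were a 4.4 kb island on chromosome 9 at 114952401 (483 tags), a 3.6 kb island on chromosome 13 at 86181801 (393 tags) and a 4 kb island on chromosome 14 at 9491201 (418 tags). The exception in width was a 13 kb island on chromosome 7 at 20551001 to 20564000, with 1340 tags, or 103.1 per kb. A 1 kb island on chromosome 4 at 139688201 (102 tags) came last of the 10. The input library was not analysed, and whether the narrow dense islands also gather tags in chromatin without antibody was not tested.

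Isolation from PiC islands was not isolation from other ESC islands. The nearest ESC H3K36me3 island lay at a median of 12.7 kb (interval 11.2 to 15.4) from the members, against 4.4 kb for the other ESC islands. A neighbour nearer than 10 kb was found for 326 members (42.8%) and for 66.0% of the others. In 102 cases such a neighbour was a non-isolated ESC island, in 224 cases there were only other members, and 436 members (57.2%) had none. Members without a close neighbour were somewhat narrower, with a median of 7.2 kb against 8.3 kb beside other members and 8.8 kb beside non-isolated islands. The 101 non-isolated neighbours were themselves covered by PiC islands over 35.3% of their length, against 86.7% for all non-isolated ESC islands. The rule keeps PiC islands out of the near part of these neighbours, so a lower value was built in.

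Many members came in rows. Counting members in sequence with no other H3K36me3 island of either list between them, 405 of 762 (53.1%, interval 49.5 to 56.7) formed 150 groups, of which 101 were pairs, 19 were triples and 30 had 4 or more. No limit of distance was set within a group. The median span was 42.1 kb, 115 of the 150 groups spanned under 100 kb, and the longest spanned 2296.6 kb. The rule keeps PiC islands away from each member, which favours such rows, and no matching share was computed for other islands. The 2 groups of most islands had 10 each. One filled a compact region of 194 kb on chromosome 11 at 85208601 to 85402600, 44.0% of it under islands of 4.6 to 12 kb. Its islands held 37.4 to 58.5 tags per kb, with 562 tags in the richest (85370201 to 85379800) and 210 in the poorest (85265201 to 85269800). No H3K9me3 island touched the region in either condition.

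The other group of 10 was spread over 1392 kb on chromosome 13, from 19721401 to 21113600, with only 7.23% of that span under its islands. It fell into a lone island, 4 islands between 20278401 and 20384000, and 5 between 21031601 and 21113600. Densities ran from 41.5 to 58.9 tags per kb, and the widest, of 19.2 kb at 21094401 to 21113600, held 1131 tags. None of these islands touched H3K9me3, though H3K9me3 covered 1.61% of the span in ESCs and 2.57% in PiCs. PiC H3K36me3 was at least 101.2 kb away from each of them.

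There were 3 groups of 6 members, and the first by position was on chromosome 4 at 81950801 to 82147000, a span of 196.2 kb. Its densities differed more among themselves, from 30.2 tags per kb at 82098201 to 82110400 to 76.8 at 82137201 to 82147000. All 6 lay at least 339.4 kb from PiC H3K36me3, and none touched H3K9me3.

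The 5 members farthest from any PiC island were on chromosome 16. An island of 9.6 kb at 73036001 to 73045600 (380 tags) stood 2711 kb from PiC H3K36me3 and 2709 kb from the next ESC island. The next 4 formed a row at 62765801 to 62889200, with 319, 239, 263 and 287 tags in order of position and gaps of 1871 to 1987 kb to the PiC list. Densities of these 5 were 31.9 to 43.1 tags per kb, under the members' median. H3K9me3 covered 26.7% of the last of the row in ESCs and 31.1% in PiCs.

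Around the members H3K36me3 was thinner than around other ESC islands, in both lists. At 10 to 50 kb from their edges the ESC list covered 22.0% and the PiC list 11.3%, against 32.3% and 32.1% around the other islands. At 50 to 200 kb the values were 17.5% and 14.4% for members and 23.2% and 23.6% for the others. The rule fixes the absence of PiC islands up to 10 kb and depresses their coverage beyond. At 10 to 50 kb, 323 members (42.4%) had no PiC H3K36me3, against 1318 of the others (11.8%). For ESC H3K36me3 the shares with none were 23.5% of members and 13.3% of others.

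**Figure D4:**
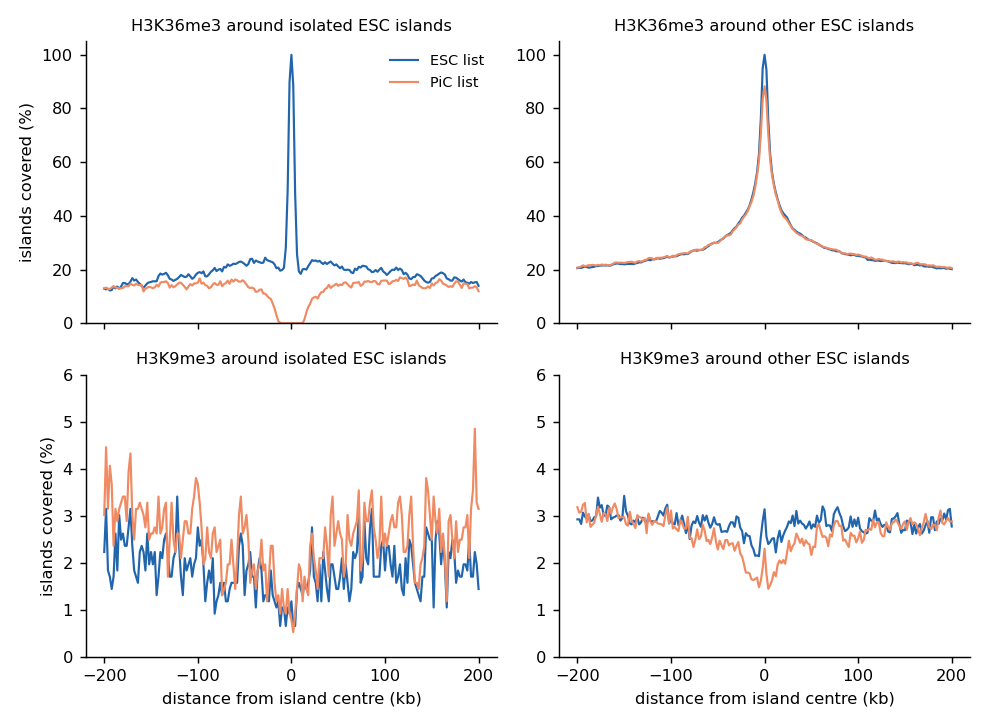
Percent of islands covered by each list at a given distance in kb from the island centre, for the 762 isolated (left) and 11209 other (right) ESC H3K36me3 islands, with H3K36me3 in the upper and H3K9me3 in the lower panels, on different vertical scales. At the centre ESC H3K36me3 is 100% by construction, PiC H3K36me3 is 0% for members by the rule and 88.3% for the others, and H3K9me3 is 1.18% in ESCs and 0.787% in PiCs for members against 3.14% and 2.30% for the others.

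H3K9me3, which the rule did not use, was found less often at members than at other ESC H3K36me3 islands when all widths and densities were counted together. In the ESC H3K9me3 list 29 of 762 members were touched, or 3.81% (interval 2.56 to 5.42), against 10.5% of all autosomal ESC islands and 10.9% (10.4 to 11.5) of the non-isolated ones. In the PiC H3K9me3 list 33 members were touched, or 4.33% (3.0 to 6.03), against 6.98% of all and 7.16% (6.69 to 7.66) of the non-isolated ones. The intervals of members and others did not overlap in either condition. Neighbouring islands lie in shared regions and are not independent, so the intervals are too narrow.

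The difference varied with width. Under 5 kb, ESC H3K9me3 touched 1.92% of members (3 of 156) and 10.1% of others, and at 5 to 10 kb 2.44% and 9.93%. At 10 to 20 kb the shares were 6.40% (interval 3.45 to 10.7) and 10.5% (9.52 to 11.6), which overlap. At 20 kb or more they were 11.8% and 12.3%, but the first rests on 4 of 34 members (interval 3.30 to 27.5). PiC H3K9me3 touched 1.92% of members (3 of 156) and 7.98% of others under 5 kb, and 3.79% and 6.76% at 5 to 10 kb. At 10 to 20 kb the members were not below the others, with 6.90% and 6.87%. At 20 kb or more the shares were 5.88% (2 of 34 members, interval 0.720 to 19.7) and 7.53%. Among islands under 50 tags per kb, the members had 3.26% in ESCs (1.91 to 5.16) and the others 7.65% (6.63 to 8.77), and in PiCs 2.68% and 6.07%. At 50 tags per kb or more the ESC shares were 5.00% (2.61 to 8.57) and 11.9% (11.2 to 12.6), but in PiCs the members, at 7.92% (4.83 to 12.1), were not below the others, at 7.47% (6.93 to 8.04). The 438 ESC islands with a PiC H3K36me3 island near but not overlapping had a still lower share, 1.60% (0.645 to 3.27), so a low share was not particular to the isolated islands.

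At other ESC islands fewer were touched by H3K9me3 in PiCs than in ESCs, and at members the numbers, 29 and 33, were close with the lists as deposited. Among members 19 were touched in both H3K9me3 lists, 10 in the ESC list alone and 14 in the PiC list alone. Among the others 545 were touched in both, 682 in the ESC list alone and 258 in the PiC list alone. Of islands touched in 1 list alone, 58.3% of the 24 members (interval 36.6 to 77.9) and 27.4% of the 940 others (24.6 to 30.4) were touched in PiCs. With 1 library per condition this contrast has no replicate check, and it differed with tag density. Under 50 tags per kb the share was 36.4% of 11 members (10.9 to 69.2) and 35.1% of 131 others, and at 50 or more it was 76.9% of 13 members (46.2 to 94.96) and 26.2% of 809 others. The PiC H3K9me3 list was the longer one, with 25867 islands over 96.4 Mb against 18464 over 55.3 Mb in ESCs. Cut to the length of the ESC list by tags, it touched 22 members, fewer than the 29 in ESCs, and 622 others against 1227.

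The members most covered by H3K9me3 in ESCs were narrow. Coverage is a percent of island width, and H3K9me3 islands are mostly short, so this ranking favours narrow members. In ESCs, H3K9me3 covered the whole of a 4.4 kb island on chromosome 2 at 21912801 to 21917200 (194 H3K36me3 tags), where the PiC H3K9me3 list came no nearer than 5.2 kb. It also covered the whole of a 5.6 kb island on chromosome 8 at 128217601 to 128223200 (287 tags), in both conditions. An island on chromosome 4 at 139717401 to 139724600 went from 97.2% in ESCs to 44.4% in PiCs. Coverage was 75% in ESCs at chromosome 7, 73036201 to 73040200, and 66.7% at chromosome 10, 61638801 to 61642400, with none in PiCs at either.

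The opposite pattern, with H3K9me3 listed in PiCs where ESCs had H3K36me3, was most complete in 3 members without ESC H3K9me3. It covered 75% of a 4.8 kb island on chromosome 1 at 14740001 to 14744800 (252 tags) and 75% of the 0.8 kb island on chromosome 10 at 41278801 to 41279600. On chromosome 5 at 22065201 to 22070600 (246 tags) it covered 59.3%. A 14.6 kb island on chromosome 10 at 27517601 to 27532200 (531 tags) had H3K9me3 in both, over 16.4% in ESCs and 61.6% in PiCs. H3K9me3 reached 50% of the island in 6 of 762 members in ESCs and 6 in PiCs. Among the 11209 others it did so in 219 and 198, so such coverage was rare in both sets. No H3K9me3 island of either condition touched 719 of the members and 9724 of the others.

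By chromosome the isolated share of ESC H3K36me3 islands ran from 3.70% on chromosome 15 (20 of 541, interval 2.27 to 5.65) to 11.6% on chromosome 6 (70 of 604, interval 9.15 to 14.4), with a median of 5.78% over 19 autosomes. The next highest were chromosome 13 at 8.65% (6.22 to 11.6) and chromosome 18 at 8.61% (5.84 to 12.1), whose intervals overlap that of chromosome 6. Neighbouring islands are not independent, so these intervals are too narrow. Members on chromosome 6 were spread over 18 of its 30 windows of 5 Mb. Without the 2 fullest windows, from 30000001 to 35000000 (9 members) and 85000001 to 90000000 (10 members), the share was still 10.1% (51 of 504). Chromosome 15, lowest here, had the highest share of isolated islands in the PiC list, 18.3% (138 of 754), where the share over all autosomes was 12.9%. On chromosome 6 the PiC share was 13.8%. In width and density the members of the 2 chromosomes were alike, with medians of 8.2 and 9.7 kb and of 44.2 and 46.2 tags per kb on chromosomes 6 and 15.

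**Figure D5:**
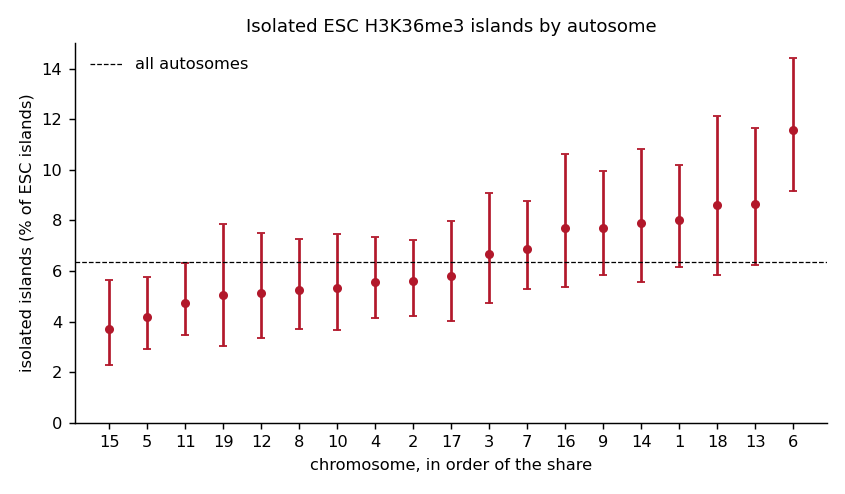
Isolated islands as a percent of the ESC H3K36me3 islands of each autosome, in order of the share, with exact 95% binomial intervals and a dashed line at the value over all autosomes, 6.37%. The interval of chromosome 6 lies above the line, and those of chromosomes 15, 5 and 11 lie below it.

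The isolated share was higher where PiC H3K36me3 was scarce, which follows in part from the rule. In the 127 windows of 5 Mb poorest in PiC H3K36me3 (mean coverage 1.47%), 15.1% of ESC islands were isolated, and in the 126 richest (20.6%) 3.95% were. The richest windows still held 243 members, the most of the 4 classes. Members had nearly the same density in all classes, from 43.7 to 45.2 tags per kb, whereas the other islands rose from 59.1 in the poorest to 81.0 in the richest class. ESC H3K9me3 touched a lower share of members than of others in each class, 2.88% against 5.65% in the poorest and 5.76% against 13.4% in the richest. These member shares rest on only 3 of 104 and 14 of 243 islands. For PiC H3K9me3 the shares were 3.85% against 8.05% in the poorest class and closer, 5.35% against 6.23%, in the richest. Among the single windows of 5 Mb, that with most members was on chromosome 11 from 85000001 to 90000000, with 15 of 73 ESC islands. Next came chromosome 13 from 20000001 to 25000000, with 12 of 25.

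Isolated islands of the PiC list, chosen by the same rule in reverse, numbered 2116 of 16363. They were narrower than the isolated ESC islands, with a median of 5 kb (interval 4.8 to 5.2). The whole PiC list was also narrower, with a median of 8.6 kb against 12.8 kb for the whole ESC list. The isolated PiC islands held a median of 38.3 tags per kb in their own library, where the whole list had 48.9.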

How the data were processed

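Per the submitters' processing notes, SICER was the caller and mm9 the build. Version, thresholds, aligner, duplicate handling and any use of the input as control were not given in the sources used here. The deposited lists, 1 per library, give chromosome, start, end and a whole number, taken as an unscaled tag count per island. Starts and ends (column 3 plus 1) lay on a 200 bp grid. No gap between H3K36me3 islands of 1 list was under 1200 bp.

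Groups were taken from the sample titles. Distances, coverage and shares were computed with Python 3.11.15 (pandas 2.3.3, numpy 2.4.6, scipy 1.17.1) and drawn with matplotlib 3.10.9. Distances are the bases between islands, and islands touch when they overlap by 1 bp or more. Shares carry exact (Clopper-Pearson) and medians order-statistic 95% intervals. The intervals are over islands and cover counting error only. PCR copies among the tags are not independent molecules, and their handling was not given. On 2000 simulated islands, 621 of them isolated, 0 were misassigned. The simulated islands lay far apart with partners at known gaps or none, so this checks the computation only.

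The reference table was of another build, GRCm38.p6, on which the last gene of chromosome 1 ends at 195291439, before islands ending at 197195400. Coordinates were not converted, and the planned comparison with genes was not made. Regions named were the widest, the richest and densest in tags, the nearest to and farthest from PiC islands, those at the limit, those most under H3K9me3 and the largest groups. Windows, chromosomes and the region around the widest islands were described after their values were seen. Members and lists were chosen with earlier results of these data known.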

Additional observations from a re-analysis of the deposited data

How the results depend on the processing

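No paired analysis was possible because no group had a second library, and for the same reason no replicate could be left out. The isolated share of ESC islands, 6.37%, was 10.0% (1200 islands) when any non-overlapping island counted, 9.16% at 2 kb, 4.70% at 20 kb and 2.70% (323 islands) at 50 kb. It was 13.5% (1611) with lists of equal size, 5.61% for ESC islands of at least 5 kb and 0.763% (46 of 6032) for the 50% of the ESC list with the most tags. For islands at or above the median tags per kb, a setting added after the data had been seen, it was 0.735% (44). The share touched by H3K9me3 moved with its definition, in ESCs and PiCs in turn. Within 10 kb it was 9.58% and 11.3% for members and 20.6% and 15.3% for others. With 25% of the island under H3K9me3 required it was 1.57% and 1.84% for members and 4.78% and 3.33% for others. For islands of at least 10 kb it was 7.17% and 6.75% for members. With H3K9me3 lists of equal size the PiC values were 2.89% and 5.55%. Among islands under 50 tags per kb, also added later, members had 2.68% in PiCs, and others had 7.65% in ESCs and 6.07% in PiCs. At 50 tags per kb or more, added after the first results, members had 7.92% in PiCs, above the 7.47% of others, and others had 11.9% in ESCs. Under the remaining H3K9me3 settings that gave a value for both, members were below the others. For members of at least 5 kb the median width was 8.8 kb and the median density 42.6 tags per kb. The other 15 of the 42 alternatives stayed within the interval of the reported value. The setting on gene bodies was not run.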
